A study of Danio rerio with 12 samples.

Results

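DNA replication and mitosis genes were followed in the whole kidney marrow of zebrafish with and without mutations in prkdc and il2rga, a pair of immune genes. The members are 43 gene symbols, 14 for copying DNA and 29 for dividing chromosomes and cells, taken from the symbol attached to each row of the count table. Of these symbols 39 matched 1 row, mcm6 and rrm2 matched 2 rows each, and incenp and ube2c matched none. That gives 43 rows, 16 for replication and 27 for mitosis, of 32105 rows in the table, and all 43 rows had enough counts to be tested. The symbol birc5a was read from a row that carries the name of its human counterpart.

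A dividing cell first copies its DNA and then separates the copies. Before S phase, Cdc6 and Cdt1 load the ring of Mcm proteins onto origins, and in S phase this ring unwinds DNA while the clamp Pcna holds the polymerases and ribonucleotide reductase supplies the building blocks. Mitosis is driven by cyclins A and B with Cdk1 and by the Aurora and Polo kinases. The spindle pulls on kinetochores, a checkpoint waits until each chromosome is attached, and Cdc20 then switches on the ubiquitin ligase that starts separation. Kidney marrow is the adult blood-forming tissue of the fish, where red cell, myeloid and lymphoid precursors divide.

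RNA with poly(A) tails was sequenced from the dissected kidney of 12 single animals, 3 of each genotype: wild type, prkdc mutant (D3612fs), il2rga mutant (Y91fs), and double mutants that carry both alleles. The gene prkdc encodes a DNA repair kinase needed to assemble antigen receptors, and il2rga encodes a receptor chain shared by several interleukins. The 2 mutations are whole-animal alleles, and the labels give no age, sex, batch or dissection day for any group. The series set the mutants beside wild type as animals with known immune defects.

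Total counts ran from 4756244 to 10311377 per library, and each level is in CPM, that is, counts scaled to library size with TMM factors. Where 3 values stand for a genotype, they are those of its libraries 1, 2 and 3 in that order. In the 6 libraries of animals with the il2rga mutation that gene stood at 1.71 to 6.17 CPM, against 34.1 to 61.4 CPM in the other 6. The level of prkdc was 16 to 23.3 CPM in prkdc mutants, 17.8 to 19.2 CPM in double mutants, 22.1 to 34.2 CPM in il2rga mutants and 50.1 to 62.8 CPM in wild type. Markers of the tissue were present in all libraries, with mean log2 CPM of 7.56 to 9.50 over 9 neutrophil genes and 8.23 to 8.89 over 20 kidney tubule genes. Within every genotype, the library highest in tubule genes had the lowest mean log2 CPM over the member rows. Tubule and member means were 8.89 and 5.72 in double mutant 2, and 8.85 and 3.76 in prkdc mutant 2. They were 8.88 and 5.86 in il2rga mutant 1, and 8.71 and 5.15 in wild type 1. The part of the tubule list in the members' levels was not tested. Some libraries stood apart in transcripts of other tissues. Over 14 testis genes, the mean log2 CPM was 4.63 in il2rga mutant 2 and 3.24 and 2.02 in double mutants 1 and 2. It was 1.73 in prkdc mutant 2 and at most 0.93 in the other libraries. On a list of 15 ovary genes, the mean log2 CPM was 6.58 in double mutant 1, 4.8 in double mutant 2, 3.23 and 2.93 in il2rga mutants 2 and 1, 2.17 in wild type 3 and at most 1.02 in the other 7 libraries. The mean log2 CPM of 17 liver genes was 5.77 to 8.53 in double mutants and 2.25 to 7.37 in il2rga mutants, against 1.5 to 3.13 in the other 2 groups. Red cell genes, 18 of them, were lowest in double mutant 2 and prkdc mutant 2, with a mean log2 CPM of 6.20 and 6.31 against 7.33 to 8.88 in the other 10 libraries. In bulk tissue, fewer cells of a type and less RNA per cell cannot be told apart.

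**Figure D1:**
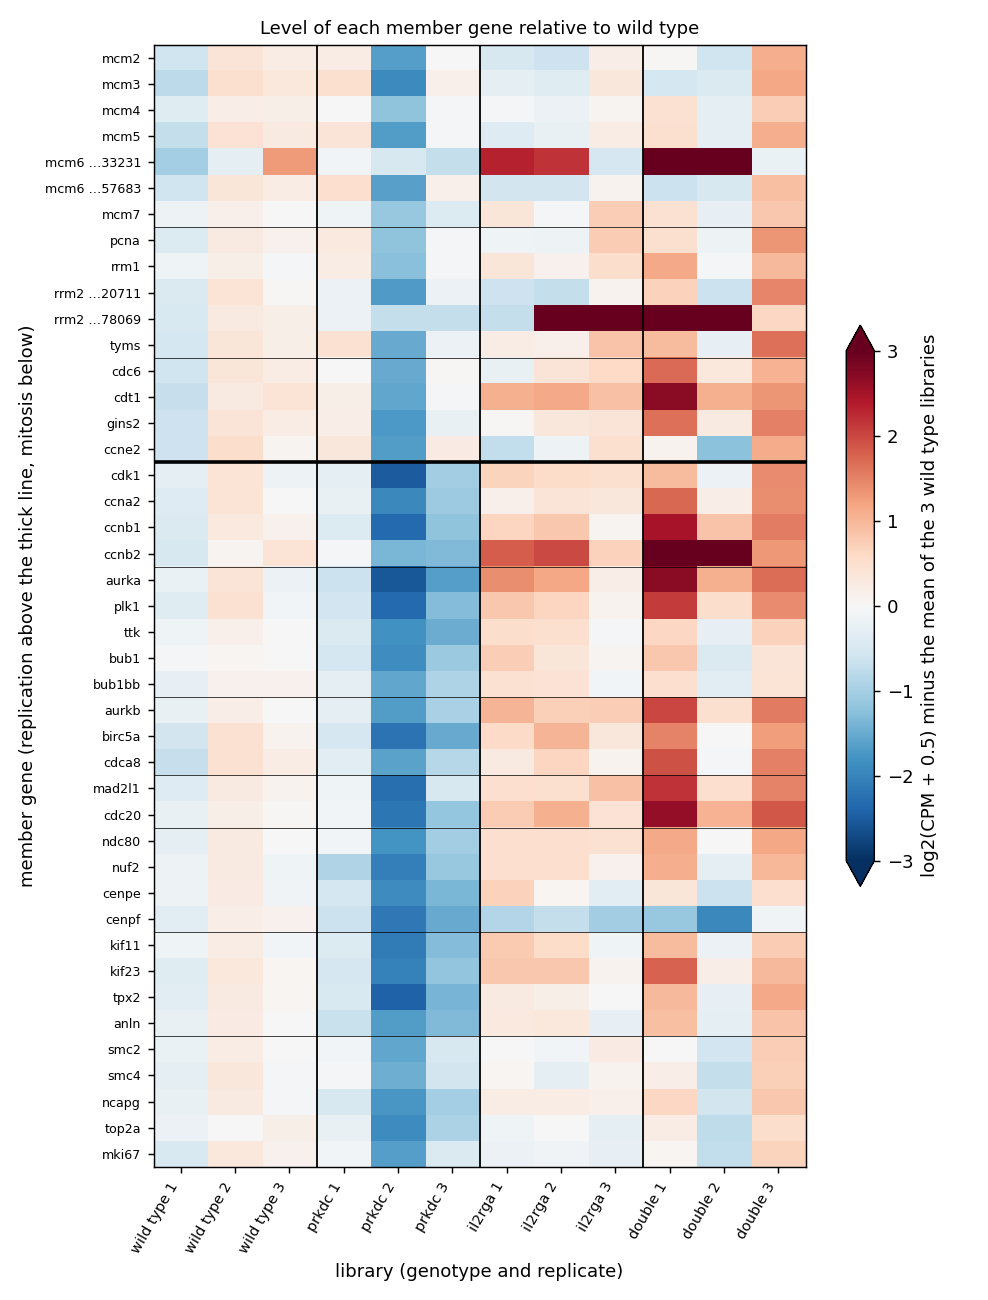
Level of each of the 43 member rows (vertical axis) in each of the 12 libraries (horizontal axis), as log2(CPM + 0.5) minus the mean of the 3 wild type libraries, with colours ending at -3 and 3. The column of prkdc mutant 2 is the bluest, prkdc mutant 3 is blue below the thick line and near white above it, and the columns of double mutants 1 and 3 are the reddest.

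Summed and written as a percent of the TMM-scaled library size, the 43 rows stood at 0.113% to 0.350% in prkdc mutants and 0.278% to 0.435% in wild type. They stood at 0.373% to 0.424% in il2rga mutants and 0.302% to 0.716% in double mutants. The heat map of the members shows that single libraries differed within a genotype. Of the 43 rows 41 had their lowest level in prkdc mutant 2, namely all 27 mitosis rows and 14 of 16 replication rows, and the minor rrm2 row was at 0 there and in 2 other libraries. The highest level lay in double mutant 1 for 22 rows and in double mutant 3 for 19 rows. How many of all genes were lowest or highest in these libraries was not counted.

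In prkdc mutants the fitted level of all 43 rows was below wild type, where 50.1% of all genes were above it, and the 27 mitosis rows lay further below it than the 16 replication rows. The median log2 fold change was -1.05 for mitosis rows and -0.33 for replication rows, against 0.00 for the 18370 genes tested. No row passed an adjusted p of 0.05 in edgeR, where 0% of all genes were called. DESeq2 and limma voom called no member row either, beside 139 and 26 of 18370 genes. At an unadjusted p under 0.05 there were 17 mitosis rows and no replication row, beside 5.73% of all genes. In 16 of the 27 mitosis rows every prkdc library lay below every wild type library, and in none of the 16 replication rows, where the share over all genes was 7.65%. Taken singly, prkdc mutant 2 was below all wild type libraries in 27 of 27 mitosis and 15 of 16 replication rows. The next, prkdc mutant 3, was below all wild type libraries in 26 of 27 mitosis rows and 2 of 16 replication rows. For prkdc mutant 1 the counts were 16 and 0. Such counts of single libraries were not made over all genes. Without prkdc mutant 2 the medians were -0.76 for mitosis and 0.01 for replication, and 35 of the 43 rows kept their sign.

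No member was called in il2rga mutants against wild type. The median log2 fold change was 0.38 for mitosis and 0.21 for replication rows, with 23 of 27 and 9 of 16 rows above 0, beside 53.5% of all genes. In edgeR 5.8% of all genes were called (2.22% higher and 3.59% lower). At an unadjusted p under 0.05 there was 1 replication row, beside 23.8% of all genes. DESeq2 called that row, the minor rrm2 row described with the other nucleotide genes, beside 2400 of 18370 genes. By limma voom none of the 43 rows was called, beside 2645 of 18370 genes. The 3 il2rga libraries lay above all wild type libraries in 7 mitosis rows and 1 replication row, beside 14.6% of all genes, and below them in 1 mitosis row, cenpf, beside 16% of all genes. Without the 4 libraries richest in liver transcripts, of which 2 were il2rga mutants, 28 of 43 rows kept their sign.

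In double mutants 8 of the 43 rows rose against wild type and none fell, where 6.8% of all genes were called higher and 7.51% lower. The 5 mitosis rows that rose were the cyclins ccnb1 and ccnb2, the kinases aurka and aurkb, and cdc20. The 3 replication rows were cdt1 and the minor rows of mcm6 and rrm2. The median log2 fold change was 0.72 over mitosis and 0.68 over replication rows, and every row but cenpf was above 0, as were 52.6% of all genes. The libraries were uneven: double mutant 3 exceeded all wild type libraries in 26 of 27 mitosis and 15 of 16 replication rows. Double mutant 1 did so in 23 and 12, and double mutant 2 in 7 and 3. Double mutant 2 was below all wild type libraries in 13 mitosis and 3 replication rows, double mutant 1 in 1 and 1. For double mutant 3 there were 0 and 0 such rows. These counts of single libraries were not made over all genes. Calls here changed when single libraries were left out, also libraries of groups not compared, and the cause was not tested. None was left without wild type 1, 2 or 3 or double mutant 1, where 715, 1240, 490 and 509 of all genes were called. Without prkdc mutant 3, il2rga mutant 2 or il2rga mutant 1, 2, 3 and 5 rows were left, beside 1703, 2136 and 2343 of all genes. Without double mutants 1 and 2, the libraries richest in ovary transcripts, 1 double mutant was left. The medians were then 1.00 for mitosis and 1.05 for replication. Without prkdc mutant 2 and double mutant 2, 20 rows were called, beside 2311 of 18617 genes.

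The clearest differences were against prkdc mutants, the group with the lowest mitosis levels. Against prkdc mutants, 10 of 27 mitosis rows and none of 16 replication rows rose in il2rga mutants, where 3.1% of all genes were called higher. In double mutants 21 of 27 mitosis rows and 4 of 16 replication rows rose against prkdc mutants, where 7.93% of all genes were called higher. Beside these calls, 19 of 30 genes for very large proteins, a list described with cenpf, fell in il2rga and 16 in double mutants, and the red cell medians were 0.61 and 0.87. No member fell in either comparison, where 3.67% and 6.86% of all genes were called lower, and both rest on the same 3 prkdc libraries. The fitted value was above 0 in 41 of 43 rows for il2rga and in 43 of 43 for double mutants, beside 52.1% and 51.6% of all genes. The medians for il2rga mutants were 1.38 for mitosis and 0.50 for replication rows, and those for double mutants 1.90 and 0.96. Every il2rga library lay above every prkdc library in 22 of 27 mitosis and 2 of 16 replication rows, beside 15.4% of all genes. Every double mutant library did so in 19 mitosis and 4 replication rows, beside 16% of all genes.

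The mitosis rows called in il2rga against prkdc mutants were aurka, plk1, ttk, bub1, aurkb, birc5a, nuf2, kif11, kif23 and anln, and each of the 10 was also called in double against prkdc mutants. In the latter, bub1bb, cenpf, smc2, smc4, top2a and mki67 were the mitosis rows not called. The number called moved with the animals and with the fit, as did that over all genes, 1244 and 2717 in the main fits. For il2rga against prkdc mutants it was 0 without prkdc mutant 2, prkdc mutant 3 or il2rga mutant 2, beside 459, 191 and 388 of all genes. Without il2rga mutant 1 it was 1, the minor rrm2 row and none of the 10 mitosis rows, beside 524 of all genes. It was 3 without il2rga mutant 3, beside 686 of all genes. Without wild type 1, 2 and 3 it was 3, 2 and 2, beside 814, 703 and 671 of all genes. For double against prkdc mutants it was 10 without prkdc mutant 2, 3 without prkdc mutant 3 and 6 without double mutant 1. In these fits 829, 400 and 382 of all genes were called. It was 0 when only these 2 groups were fitted, beside 236 of 17097 genes. Without double mutants 1 and 2, with 1 double mutant left, the medians were 2.13 for mitosis and 1.35 for replication rows. All 43 rows were then above 0.

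**Figure D2:**
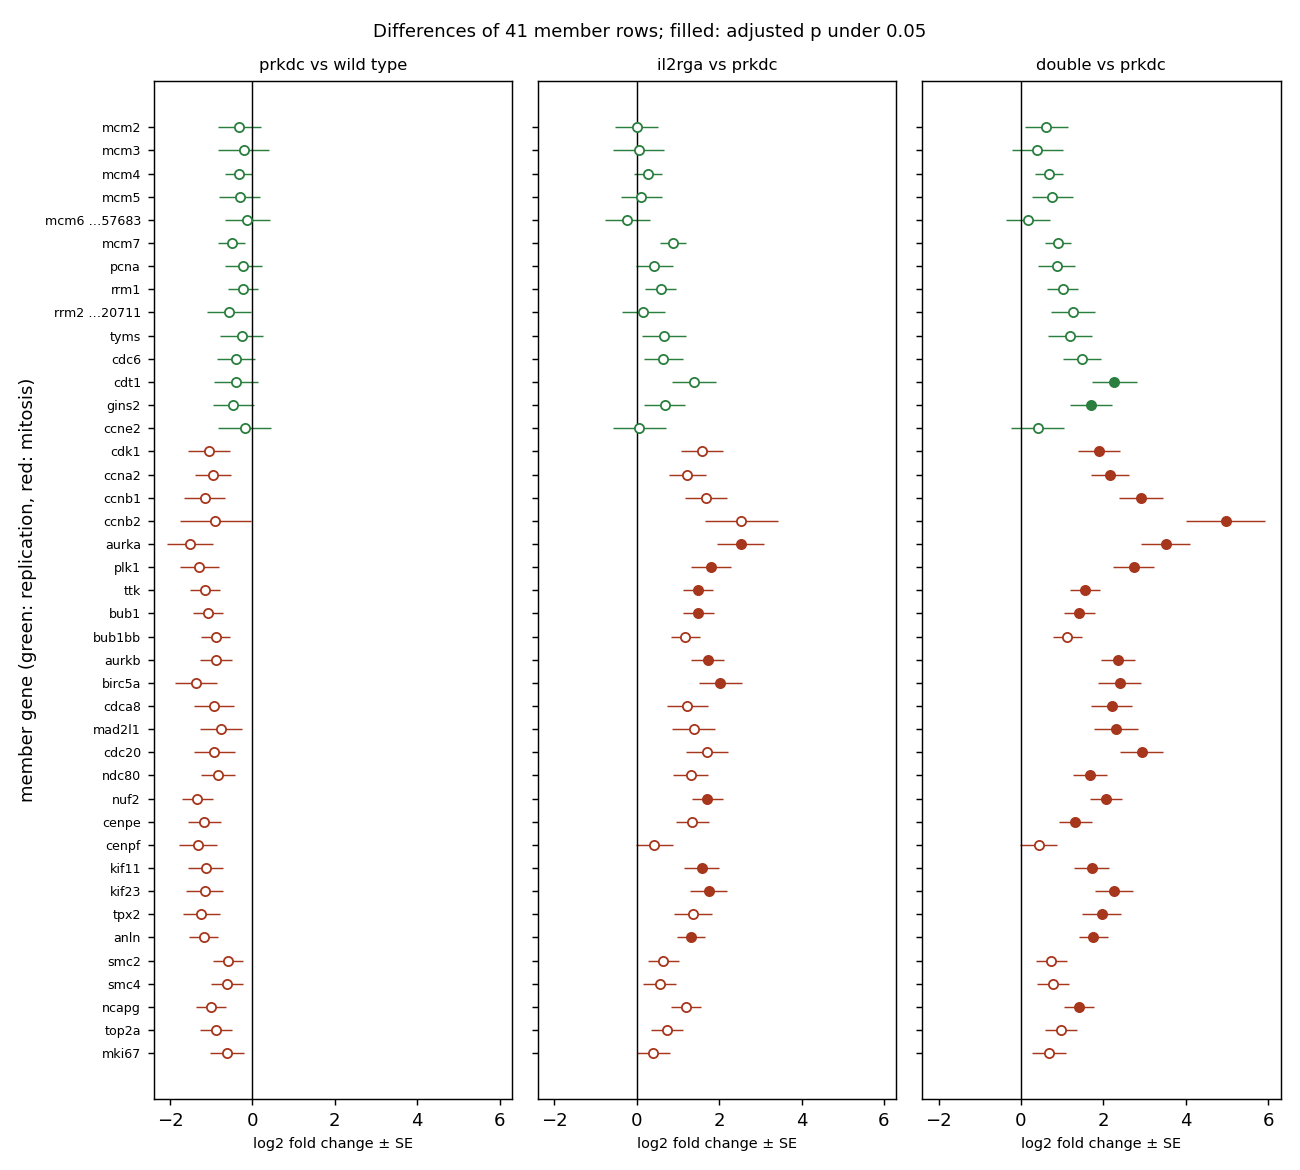
Log2 fold change with its standard error (horizontal axes) of 41 member rows (vertical axis; the minor rows of mcm6 and rrm2 are left out) for prkdc mutants against wild type, il2rga against prkdc mutants and double against prkdc mutants, replication in green and mitosis in red. Filled points have an adjusted p under 0.05: there are none on the left, 10 in the middle and 23 on the right, and ccnb2 and aurka lie furthest to the right.

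No row was called between double and il2rga mutants by edgeR, where 0% of all genes were called. DESeq2 and limma voom also called no member row, beside 72 and 0 of 18370 genes. At an unadjusted p under 0.05 there were 3 mitosis rows and 1 replication row, beside 9.62% of all genes. The fitted values were above 0 in 40 of 43 rows, beside 50% of all genes, with medians of 0.36 for mitosis and 0.54 for replication. Whether the prkdc mutation acted differently with and without the il2rga mutation was tested as an interaction. All 43 rows had a positive interaction, beside 50.9% of all genes, with medians of 1.53 and 0.86. None of them was called by edgeR, DESeq2 or limma voom, where 0, 49 and 0 of 18370 genes were called. At an unadjusted p under 0.05 there were 16 mitosis rows and 1 replication row, beside 6.11% of all genes. The prkdc mutation went with fitted levels below its control without the il2rga mutation and mostly above it with that mutation, but the change in its effect did not pass the correction.

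The il2rga mutation can be read in 2 comparisons that share no library, il2rga against wild type and double against prkdc mutants. Over the 27 mitosis rows their log2 fold changes had a Pearson correlation of 0.892 and a Spearman correlation of 0.862, and 23 rows had the same sign in both. Over the 16 replication rows the correlations were 0.936 and 0.738, and 9 rows (56.2%) had the same sign. The minor rrm2 row (6.52 and 8.98) and the minor mcm6 row (1.71 and 6.05) lay furthest out, at replication medians of 0.21 and 0.96. Correlations without these minor rows were not computed. Over all 18370 genes tested the correlations were 0.641 and 0.615 and 74.3% had the same sign. These describe genes within the same animals, which are not independent replicates. For the prkdc mutation, prkdc against wild type and double against il2rga mutants, the same 27 rows gave -0.01 and -0.09, with 3 rows of the same sign (11.1%). The 16 replication rows gave -0.37 and -0.61, with 0 rows of the same sign. Over all genes the correlations were -0.016 and -0.010, and 51.3% had the same sign.

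Among replication genes, the Mcm helicase subunits overlapped between most genotypes. The gene mcm2 stood at 125, 249 and 224 CPM in wild type and 225, 60.1 and 194 in prkdc mutants. The il2rga mutants had 137, 123 and 218 CPM, and the double mutants 197, 127 and 408. The highest and lowest of these values belong to a double mutant and a prkdc mutant, and all 4 genotypes overlap. The log2 fold change of mcm2 was -0.32 ± 0.52 (SE) in prkdc mutants and 0.29 ± 0.52 in double mutants against wild type, with adjusted p of 1 and 0.734. For mcm3, mcm4, mcm5, mcm7 and the major mcm6 row, log2 fold changes were -0.51 to -0.13 in prkdc mutants, -0.36 to 0.38 in il2rga mutants and 0.04 to 0.46 in double mutants against wild type, none of them called. The 1 subunit without overlap in any pair of groups was mcm7, at 196 ± 52.6 CPM (SD, n = 3) in il2rga and 106 ± 35.0 CPM in prkdc mutants (adjusted p = 0.114).

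The clamp pcna stood at 300.0, 485 and 437 CPM in wild type and 485, 172 and 391 in prkdc mutants. Values were 367, 361 and 679 CPM for il2rga and 555, 362 and 1004 for double mutants. The 4 genotypes overlapped, and the log2 fold change was 0.87 ± 0.45 (SE) in double against prkdc mutants (adjusted p = 0.2). The large subunit of ribonucleotide reductase, rrm1, averaged 143 ± 15.4 CPM (SD, n = 3) in wild type, 122 ± 55.4 in prkdc, 182 ± 25.1 in il2rga and 245 ± 93.2 in double mutants. The enzyme tyms, which makes thymidylate, averaged 57.3 ± 17.2, 47.8 ± 28.3, 75.7 ± 21.5 and 109 ± 63.9 CPM in the same order. Neither was called in any comparison.

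The small subunit of ribonucleotide reductase, rrm2, is split over 2 rows of the table, and these behaved in different ways. The major row, ENSDARG00000020711, stood at 45.0, 81.9 and 62.7 CPM in wild type and 54.4, 18.7 and 54.7 in prkdc mutants. It was 39.7, 37.2 and 66.2 CPM with the il2rga mutation alone and 99.7, 38.9 and 169.5 with both mutations. It overlapped between all genotypes and was called in no comparison. The minor row, ENSDARG00000078069, was near 0 in 8 libraries and high in 4: its raw counts were 0, 324 and 284 for il2rga mutants and 900, 352 and 5 for double mutants. Wild type animals gave 1, 4 and 4 raw counts and prkdc mutants 2, 0 and 0. As levels these are 0.0983, 0.487 and 0.43 CPM in wild type and 0.229, 0 and 0 in prkdc mutants. Animals with the il2rga mutation alone had 0, 34.6 and 60.4, and those with both mutations 102, 35.2 and 0.764. The libraries of 1 genotype thus fell on both sides, with il2rga mutant 1 and double mutant 3 at the level of wild type. In the 4 high libraries the minor row took 48.2%, 47.7%, 50.6% and 47.5% of the counts of both rows (il2rga mutants 2 and 3, double mutants 1 and 2), with 95% Wilson intervals between 43.7% and 53.0%, and in the other 8 libraries at most 0.681%. These intervals cover counting error only.

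The minor rrm2 row rose in double mutants against wild type (log2 fold change 7.07 ± 2.00 (SE), adjusted p = 0.0426). Against prkdc mutants, with 2 counts over 3 libraries, the ratio of double mutants was 651 with a 95% counting interval of 180 to 5379, and the adjusted p was 0.034. In il2rga mutants, adjusted p was 0.0795 against wild type and 0.0575 against prkdc mutants. Both rows together gave 39.7, 71.8 and 127 CPM in il2rga mutants and 202, 74.1 and 170.3 CPM in double mutants, against 45.1, 82.3 and 63.2 CPM in wild type and 54.6, 18.7 and 54.7 CPM in prkdc mutants. The 2 rows carry the same symbol, so how reads were divided between them could set this split, which was not tested. Sequences were not used here, so how alike the 2 rows are is not known.

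The symbol mcm6 also has 2 rows. The minor row, ENSDARG00000033231, is given here after its values were seen, and stood at 0.295, 0.853 and 3.44 CPM in wild type and 1.03, 0.655 and 0.48 in prkdc mutants. For il2rga mutants the values were 7.56, 6.73 and 0.638, and for double mutants 117, 28.7 and 0.916. It was high in double mutants 1 and 2, at 1031 and 287 raw counts, and at 6 counts in double mutant 3, within the wild type range of 3 to 32 counts. It took 53.6% of the mcm6 counts in double mutant 1 (95% Wilson interval 51.4% to 55.8%), 20.2% in double mutant 2 (18.2% to 22.4%), 6.55% and 5.90% in il2rga mutants 1 and 2, and at most 1.82% in the other 8 libraries. The row rose against wild type (log2 fold change 4.99 ± 1.46 (SE), adjusted p = 0.0465) and against prkdc mutants (log2 fold change 6.05 ± 1.57 (SE), adjusted p = 0.033), and its direction against wild type turned without double mutants 1 and 2, to -0.723. The 5 libraries with the most counts in this row, double mutants 1 and 2, il2rga mutants 1 and 2 and wild type 3, were also the 5 with the highest ovary list, whose part was not tested. The 4 libraries high in the minor rrm2 row had mean ovary levels of 6.58, 4.8, 3.23 and -0.46 log2 CPM (double mutants 1 and 2, il2rga mutants 2 and 3).

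**Figure D3:**
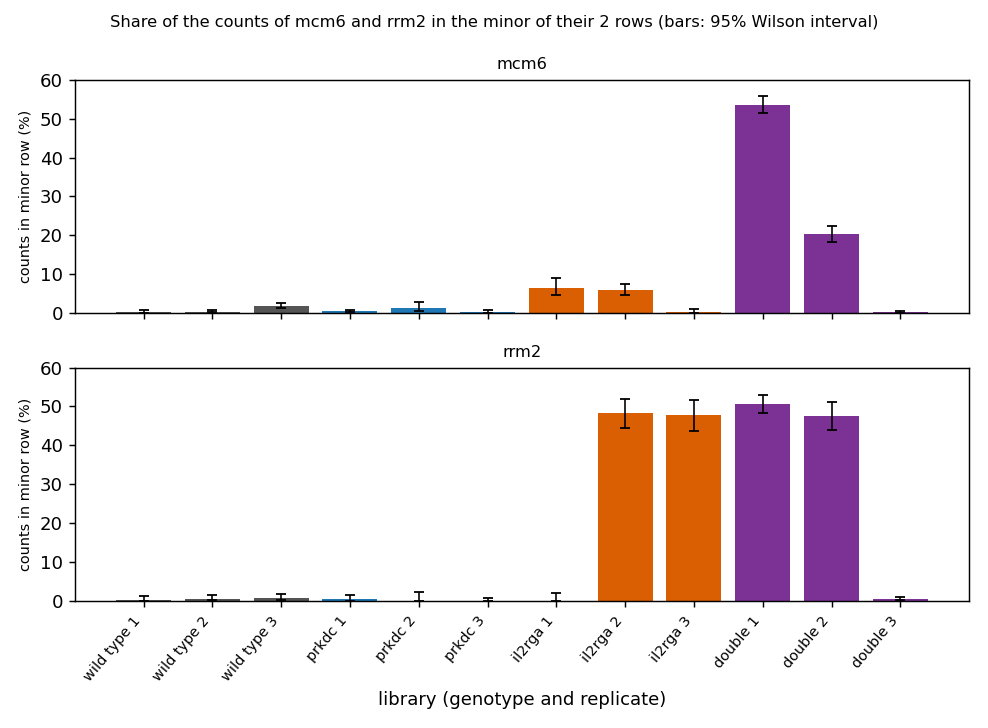
Percent of the counts of mcm6 (top) and rrm2 (bottom) that fell in the minor of their 2 rows (vertical axes) in each of the 12 libraries (horizontal axis), with 95% Wilson intervals. The minor rrm2 row holds 47.5% to 50.6% in 4 libraries and at most 0.681% in the others, and the minor mcm6 row reaches 53.6% in double mutant 1 and 20.2% in double mutant 2.

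Of the genes that license and start replication, cdt1 rose most. This loader of the Mcm ring, shown in full after its values were seen, stood at 6.1, 12.5 and 13.9 CPM in wild type and 11.6, 3.16 and 9.83 in prkdc mutants. In il2rga mutants it was 22.1, 23.3 and 19.1, and in double mutants 69.6, 22.1 and 26.6. All 6 libraries with the il2rga mutation exceeded all 6 without it. It rose in double mutants against wild type (log2 fold change 1.86 ± 0.53 (SE), adjusted p = 0.0411) and against prkdc mutants (log2 fold change 2.27 ± 0.54 (SE), adjusted p = 0.0245), while in il2rga against wild type the adjusted p was 0.282. The GINS subunit gins2, part of the active helicase, rose in double against prkdc mutants (log2 fold change 1.71 ± 0.51 (SE), adjusted p = 0.0457). The other Mcm loader, cdc6, had a log2 fold change of 1.48 ± 0.47 in that comparison (adjusted p = 0.0541), and cyclin E2, ccne2, one of 0.40 ± 0.64 (adjusted p = 0.694).

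Among the mitotic cyclins the 2 B cyclins had the largest log2 fold changes in double mutants against wild type and against prkdc mutants. Cyclin B2, ccnb2, stood at 4.03, 6.21 and 7.96 CPM in wild type and 5.72, 1.96 and 2.04 in prkdc mutants. The il2rga mutants had 22.1, 24.6 and 9.79 CPM, and the double mutants 239, 52.4 and 15.1. Every il2rga and double mutant library exceeded every wild type and prkdc library, and double mutant 1 was the highest of all. The highest values, in double mutants 1 and 2 and il2rga mutants 2 and 1, fell in the libraries highest on the ovary list, in the same order. The remaining double and il2rga mutants, both numbered 3, had ovary levels of 0.68 and -0.46 log2 CPM. The part of the ovary list in the level of ccnb2 was not tested. The gene ccnb2 rose in double mutants against wild type (log2 fold change 4.07 ± 0.91 (SE), adjusted p = 0.0217) and against prkdc mutants (log2 fold change 4.97 ± 0.96 (SE), adjusted p = 0.0145). In il2rga mutants against wild type it missed the threshold (log2 fold change 1.64 ± 0.85, adjusted p = 0.27). Cyclin B1, ccnb1, stood at 38.3, 64.6 and 57.4 CPM in wild type and 39.1, 9.93 and 22.4 in prkdc mutants. Values were 82.4, 91.8 and 55.5 CPM for il2rga and 292, 94.3 and 153 for double mutants. The double mutants were each above all prkdc and all wild type libraries, and the log2 fold changes were 1.75 ± 0.50 against wild type (adjusted p = 0.0417) and 2.91 ± 0.53 against prkdc mutants (adjusted p = 0.0109). This was also the 1 row in which every double mutant exceeded every il2rga mutant, as did 5.61% of all genes (adjusted p = 0.512).

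Cyclin A2, ccna2, which acts in both S phase and mitosis, stood at 49.5, 86.4 and 63.9 CPM in wild type and 56.0, 16.7 and 30.1 in prkdc mutants. It was 72.3, 85.3 and 82.8 CPM with the il2rga mutation alone and 216, 74.7 and 171 with both mutations. Each double mutant lay above all prkdc mutants, and the gene rose in that comparison (log2 fold change 2.17 ± 0.46 (SE), adjusted p = 0.0176), while wild type and double mutants overlapped. Their kinase partner cdk1 also rose in double against prkdc mutants (log2 fold change 1.90 ± 0.52 (SE), adjusted p = 0.0356) and averaged 32.0 ± 21.2 CPM (SD, n = 3) in prkdc mutants against 66.4 ± 18.0 in wild type.

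The Aurora A kinase gene aurka, which builds the spindle poles, had the smallest adjusted p of all members. It stood at 12.6, 19.2 and 12.8 CPM in wild type and 9.16, 2.07 and 4.32 in prkdc mutants. Animals with the il2rga mutation alone had 39.1, 33.3 and 16.8, and those with both mutations 98.4, 31.1 and 48.0. Each prkdc library lay below all other libraries, and each double mutant lay above all wild type libraries. The log2 fold change was 3.51 ± 0.59 (SE) in double against prkdc mutants (adjusted p = 0.00874), 2.52 ± 0.57 in il2rga against prkdc mutants (adjusted p = 0.0309) and 1.99 ± 0.55 in double mutants against wild type (adjusted p = 0.0374). In prkdc mutants against wild type it was -1.52 ± 0.56, the largest negative value of a mitosis row there (unadjusted p = 0.0199, adjusted p = 0.752).

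Polo-like kinase 1, plk1, stood at 53.1, 93.8 and 64.4 CPM in wild type and 45.9, 13.1 and 27.6 in prkdc mutants. For il2rga mutants the values were 121, 108 and 73.8, and for double mutants 297, 98.8 and 183. Each prkdc library was again below all wild type libraries and each double mutant above them. The gene rose against prkdc mutants in double mutants (log2 fold change 2.74 ± 0.50 (SE), adjusted p = 0.011) and in il2rga mutants (log2 fold change 1.81 ± 0.48 (SE), adjusted p = 0.0488). The checkpoint kinase ttk and its partner bub1 had the same 2 calls, with log2 fold changes of 1.42 to 1.56 in double and 1.49 to 1.5 in il2rga mutants, and bub1bb, the BubR1 gene, had none (adjusted p = 0.0548 and 0.0693). Unlike aurka and plk1, these 3 were at most 0.42 above wild type on the log2 scale in double mutants.

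Of the chromosomal passenger complex, which corrects faulty spindle attachments, all 3 genes with a row rose in double against prkdc mutants. Its kinase aurkb stood at 29.2, 39.7 and 34.7 CPM in wild type and 28.4, 10.4 and 17.3 in prkdc mutants. In il2rga mutants it was 70.2, 56.9 and 57.4, and in double mutants 138, 47.9 and 102. The genotypes formed separate blocks, prkdc mutants below wild type and wild type below both groups with the il2rga mutation. It rose in double mutants against prkdc mutants (log2 fold change 2.36 ± 0.41 (SE), adjusted p = 0.00981) and against wild type (log2 fold change 1.48 ± 0.40 (SE), adjusted p = 0.0346), and in il2rga against prkdc mutants (log2 fold change 1.72 ± 0.40 (SE), adjusted p = 0.0339), whereas il2rga against wild type missed the threshold (adjusted p = 0.227).

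The survivin gene birc5a stood at 7.67, 15.8 and 12.4 CPM in wild type and 8.01, 2.07 and 3.72 in prkdc mutants. The il2rga mutants had 17.4, 23.9 and 14.7 CPM, and the double mutants 33.3, 11.5 and 28.3. It rose against prkdc mutants in double (log2 fold change 2.40 ± 0.53 (SE), adjusted p = 0.0192) and il2rga mutants (log2 fold change 2.02 ± 0.52 (SE), adjusted p = 0.0444). The borealin gene cdca8 stood at 13.3, 29.7 and 25.4 CPM in wild type and 17.3, 6.76 and 11.8 in prkdc mutants. Values were 26.3, 34.2 and 23.2 CPM for il2rga and 81.9, 20.7 and 62.0 for double mutants. Its double mutants all exceeded the prkdc mutants, and it rose there (log2 fold change 2.2 ± 0.51 (SE), adjusted p = 0.0224), while its wild type and double mutant values overlapped.

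The activator of the anaphase-promoting ubiquitin ligase, cdc20, stood at 22.0, 28.9 and 26.5 CPM in wild type and 24.2, 5.35 and 11.3 in prkdc mutants. It was 43.7, 53.8 and 34.9 CPM with the il2rga mutation alone and 162, 53.5 and 95 with both mutations. All 3 double mutants were above all wild type libraries and the il2rga mutants were too. It rose in double mutants against wild type (log2 fold change 2.01 ± 0.51 (SE), adjusted p = 0.0286) and against prkdc mutants (log2 fold change 2.93 ± 0.53 (SE), adjusted p = 0.0107). The checkpoint protein that holds Cdc20 back, mad2l1, rose in double against prkdc mutants (log2 fold change 2.3 ± 0.53 (SE), adjusted p = 0.023) and averaged 60.2 ± 32.3 CPM (SD, n = 3) there against 20.7 ± 4.75 in wild type (adjusted p = 0.0686).

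**Figure D4:**
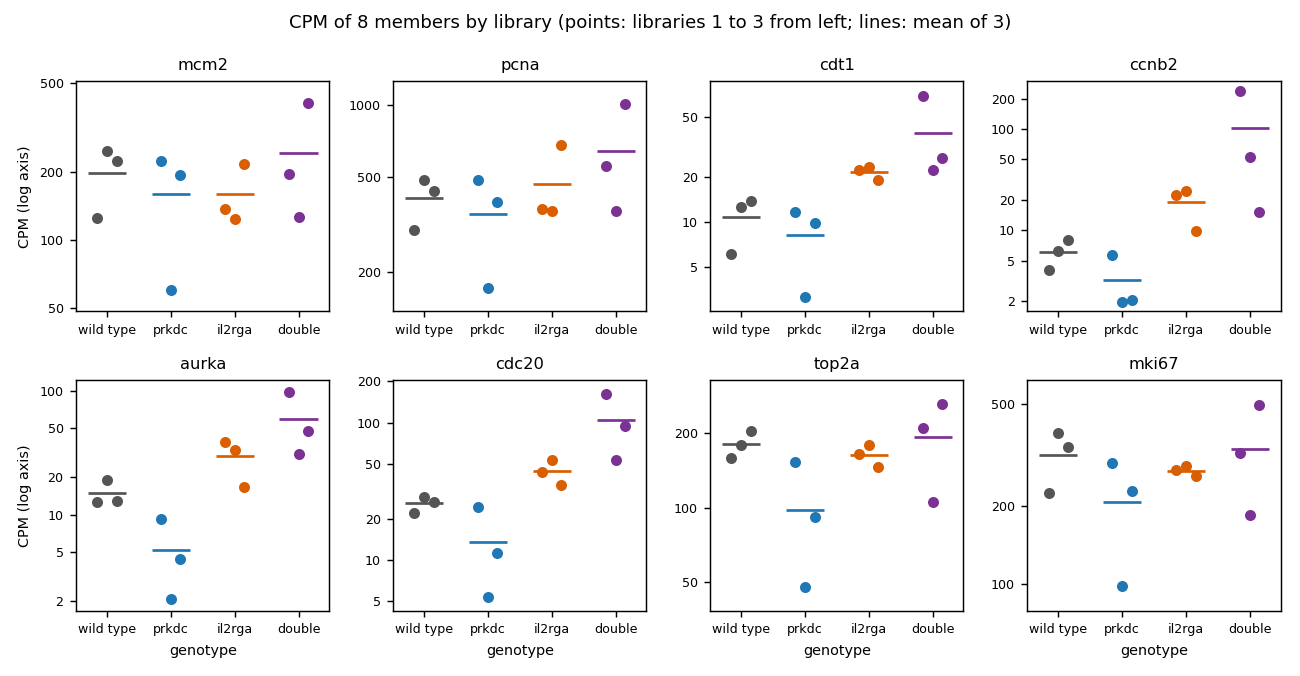
CPM on a log axis (vertical axes) of 8 members in the 4 genotypes (horizontal axes), with a point for each library and a line at the mean of 3. For cdt1 and ccnb2 every il2rga and double mutant library lies above every other library, for aurka every prkdc library lies below every other library, and for mcm2, pcna, top2a and mki67 the double mutants overlap all other genotypes.

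At the kinetochore, nuf2 of the Ndc80 complex stood at 24.6, 33.1 and 24.6 CPM in wild type and 14.3, 6.22 and 12 in prkdc mutants. Animals with the il2rga mutation alone had 38.7, 38.6 and 29.6, and those with both mutations 58.4, 22.4 and 54.8. The prkdc mutants were all below the other 9 libraries. The gene rose against prkdc mutants in double (log2 fold change 2.06 ± 0.39 (SE), adjusted p = 0.0121) and in il2rga mutants (log2 fold change 1.72 ± 0.38 (SE), adjusted p = 0.0285), and in prkdc mutants against wild type it had the smallest unadjusted p of the members (log2 fold change -1.34 ± 0.38, unadjusted p = 0.00452, adjusted p = 0.504). Its partner ndc80 rose in double against prkdc mutants (log2 fold change 1.67 ± 0.42 (SE), adjusted p = 0.0273), as did the kinetochore motor cenpe (log2 fold change 1.32 ± 0.40 (SE), adjusted p = 0.0489).

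The kinetochore gene cenpf departed from the other mitosis rows. It stood at 92.1, 135 and 128 CPM in wild type and 75.0, 26.1 and 40.7 in prkdc mutants. For il2rga mutants the values were 63.2, 70.7 and 56.4, and for double mutants 52.8, 30.1 and 109. All il2rga mutants and 2 of 3 double mutants were below all wild type libraries, and double mutant 3 was within their range. The log2 fold change against wild type was -1.32 ± 0.46 in prkdc, -0.90 ± 0.45 in il2rga and -0.89 ± 0.45 in double mutants, with adjusted p of 0.706, 0.256 and 0.197. No other member had a negative value in double mutants against wild type. A list of 30 genes for very large proteins holds no member, and was made once a fall of long genes was known. All 30 had negative log2 fold changes against wild type, both in il2rga and in double mutants. Of these, 22 and 23 were called lower, beside 3.59% and 7.51% of all genes. The list had a mean log2 CPM of 7.04 to 7.13 in wild type and 6.93 to 6.96 in prkdc mutants. It was 5.82 to 6.27 in il2rga and 5.87 to 6.16 in double mutants. Its part in the level of cenpf, which also encodes a large protein, was not tested.

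The spindle and cytokinesis genes kif11, kif23, tpx2 and anln all rose in double against prkdc mutants, with log2 fold changes of 1.72 to 2.27. The motor of the central spindle, kif23, stood at 31.1, 50.8 and 41.8 CPM in wild type and 28.3, 9.49 and 17.5 in prkdc mutants. In il2rga mutants it was 70.6, 71.6 and 43.4, and in double mutants 140.0, 46.1 and 80.0. It rose against prkdc mutants in double (log2 fold change 2.27 ± 0.46 (SE), adjusted p = 0.0155) and in il2rga mutants (log2 fold change 1.75 ± 0.46 (SE), adjusted p = 0.0457). Anillin, anln, which shapes the cleavage furrow, stood at 68.6, 94.9 and 80.0 CPM in wild type and 50.5, 24.8 and 31.8 in prkdc mutants. The il2rga mutants had 98.7, 100.3 and 68.1 CPM, and the double mutants 150.4, 65.2 and 146. All prkdc libraries were below all other libraries, and anln rose against them in double (log2 fold change 1.76 ± 0.35 (SE), adjusted p = 0.0147) and il2rga mutants (log2 fold change 1.32 ± 0.35 (SE), adjusted p = 0.0467). The spindle motor kif11 had both calls too, and the spindle assembly factor tpx2 had that in double mutants alone (adjusted p = 0.0938 in il2rga against prkdc mutants).

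The genes of chromosome structure had the lowest median log2 fold change of the mitosis groups in double against prkdc mutants. The proliferation marker mki67, which coats mitotic chromosomes, stood at 226, 386 and 341 CPM in wild type and 295, 98.5 and 230.0 in prkdc mutants. Values were 276, 286 and 263 CPM for il2rga and 321, 185 and 493 for double mutants. Its lowest and highest values lay in prkdc mutant 2 and double mutant 3. Topoisomerase II alpha, top2a, which untangles sister chromatids, stood at 158, 178 and 203 CPM in wild type and 152, 48.1 and 91.7 in prkdc mutants. It was 163, 179 and 146 CPM with the il2rga mutation alone and 209, 105 and 259.7 with both mutations. Here prkdc mutants were all below wild type. The condensin subunit smc4 stood at 123, 188 and 141 CPM in wild type and 142, 53.0 and 101 in prkdc mutants. Animals with the il2rga mutation alone had 155, 120.4 and 159, and those with both mutations 170.0, 89.7 and 245. In all 3 genes double mutants overlapped every other genotype, and the log2 fold changes in double against prkdc mutants were 0.68 ± 0.41 (SE) for mki67, 0.97 ± 0.39 for top2a and 0.77 ± 0.39 for smc4, none of them called. Of this group the condensin subunit ncapg alone was called (log2 fold change 1.40 ± 0.37 (SE), adjusted p = 0.0316), and smc2 was not (adjusted p = 0.198).

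Set in order by their median log2 fold change in double against prkdc mutants, the mitosis groups ran from checkpoint and Cdc20 (2.62, 2 of 2 called), cyclins and Cdk1 (2.54, 4 of 4) and the passenger complex (2.36, 3 of 3) through spindle and cytokinesis (1.86, 4 of 4), kinases (1.56, 4 of 5) and kinetochore (1.5, 3 of 4) to chromosome structure (0.77, 1 of 5). The replication groups were licensing and start (1.60, 2 of 4), clamp and nucleotide supply (1.19, 1 of 5) and the helicase (0.68, 1 of 7). Differences between these groups were not tested.

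A score was also taken as the mean log2 CPM of the 27 mitosis rows minus that of the 16 replication rows. It was 0.49, 0.16 and -0.03 in wild type 1 to 3, -0.33, -0.32 and -0.75 in prkdc mutants, 0.70, 0.21 and -0.46 in il2rga mutants, and 0.0047, -0.27 and 0.18 in double mutants. The prkdc mutants lay below all wild type libraries, with a mean of -0.467 ± 0.244 (SD, n = 3) against 0.205 ± 0.264, and the il2rga mutants ran from the highest value of all libraries to below both wild type and double mutants. Without the minor rows of mcm6 and rrm2, the score was -0.38, -0.68 and -0.75 in wild type, -1.18, -1.04 and -1.68 in prkdc mutants, -0.01, -0.07 and -0.93 in il2rga mutants, and -0.01, -0.40 and -0.73 in double mutants. The prkdc mutants were then below all other libraries, and the double mutant mean moved from 0.236 below wild type to 0.221 above it. The score carries no test, since its members were chosen with results known.

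**Figure D5:**
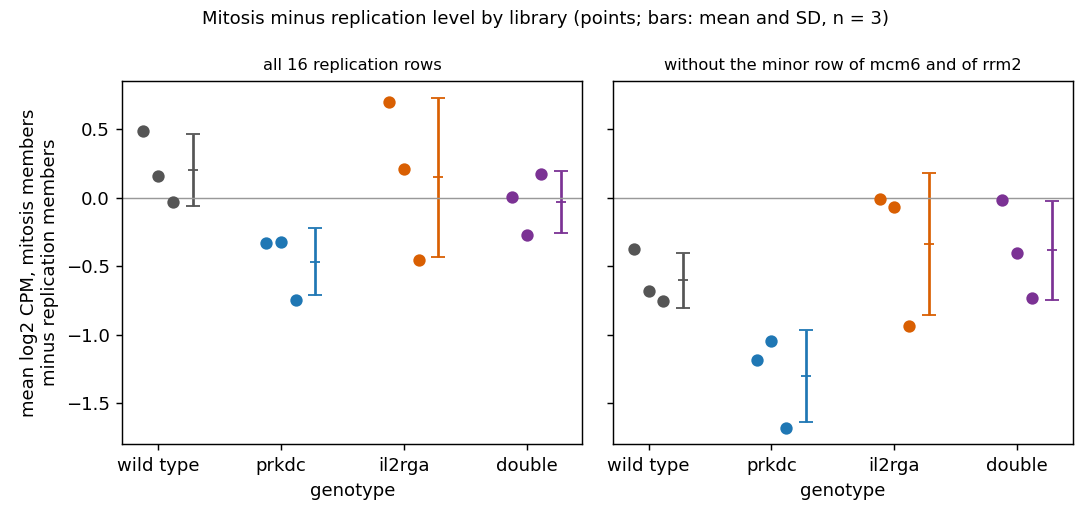
Mean log2 CPM of the mitosis members minus that of the replication members (vertical axis) in each library of the 4 genotypes (horizontal axes), with the mean and SD of 3 beside them, for all 16 replication rows (left) and without the minor rows of mcm6 and rrm2 (right). The 3 prkdc points lie below all wild type points in both panels, and on the right below all 9 other points.

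Other genes of the same pathways were read from lists beside the members. Of 50 other replication genes, 3 rose and none fell in double mutants against wild type, a share near the 6.8% of all genes called higher there. In double against prkdc mutants 10 rose, where 7.93% of all genes did. Of 63 other mitosis genes tested, 3 rose in double mutants against wild type, a share no higher than that of all genes. In il2rga against prkdc mutants 9 rose, beside 3.1% of all genes, and in double against prkdc mutants 31 rose, beside 7.93%, with none falling in these comparisons. In prkdc mutants against wild type 62 of these 63 and 46 of the 50 replication genes had negative fold changes, at medians of -0.69 and -0.24, and none was called. The median log2 fold change in double against prkdc mutants was 1.30 over the other mitosis genes and 0.94 over the other replication genes.

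The 3 replication genes behind the count against wild type, which is near the share of all genes, were the histone chaperone nasp (log2 fold change 2.22 ± 0.50 (SE), adjusted p = 0.0213), cyclin E1, ccne1 (log2 fold change 1.62 ± 0.40 (SE), adjusted p = 0.0258), and geminin, gmnn, the inhibitor of Cdt1 (log2 fold change 1.47 ± 0.43 (SE), adjusted p = 0.0441). The 3 mitosis genes were the kinetochore subunit cenpo (log2 fold change 1.82 ± 0.49 (SE), adjusted p = 0.0346), the centrosome kinase nek2 (log2 fold change 1.86 ± 0.53 (SE), adjusted p = 0.0405) and the microtubule depolymerase kif2c (log2 fold change 1.28 ± 0.38 (SE), adjusted p = 0.0473). Upstream of replication, 25 E2F and Myc factors, G1 cyclins and their kinases were tested. Against wild type, 1 of the 25 fell in il2rga mutants, beside 3.59% of all genes. In double mutants 2 rose and 1 fell, beside 6.8% and 7.51% of all genes. These counts are near or below the shares of all genes. The G1 kinase cdk6 fell against wild type in il2rga (log2 fold change -2.15 ± 0.47 (SE), adjusted p = 0.0274) and double mutants (log2 fold change -1.58 ± 0.46 (SE), adjusted p = 0.0441), from a mean of 128 CPM in wild type to 28.8 and 42.9 CPM. The Myc family gene mych (log2 fold change 1.04 ± 0.30 (SE), adjusted p = 0.0412) and e2f5 (log2 fold change 2.28 ± 0.65 (SE), adjusted p = 0.0416) rose in double mutants. Of 17 cell cycle inhibitors none was called in a mutant against wild type, the most abundant, btg1, averaging 991 CPM in wild type and 641 in double mutants (adjusted p = 0.203). Against prkdc mutants, 1 of the 17 rose in il2rga mutants, beside 3.1% of all genes, and 15 had positive fold changes. In double against prkdc mutants 3 rose, beside 7.93% of all genes, and 13 had positive fold changes. None fell in these 2 comparisons.

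Marker lists of other cells moved beside the members. None of 18 red cell genes was called in any comparison, with median log2 fold changes of -0.82 in prkdc, -0.34 in il2rga and -0.09 in double mutants against wild type. All 18 were below 0 in prkdc mutants against wild type. Against prkdc mutants the red cell median was 0.61 in il2rga mutants, with 14 of 18 above 0, and 0.87 in double mutants, with 15 of 18. The medians of red cell genes and of members had the same sign in these 3 comparisons, which share the prkdc libraries. In il2rga and double mutants against wild type the signs differed, with member medians of 0.29 and 0.72. In double against il2rga mutants both were above 0, at 0.15 for red cell genes and 0.44 for members. Of 13 T cell genes 10 fell in il2rga and 10 in double mutants against wild type, beside 3.59% and 7.51% of all genes. Of 16 B cell genes 10 fell in double mutants against wild type, while 1 rose and 1 fell in il2rga mutants. Of 15 ovary genes 2 rose in double mutants against wild type and 8 against prkdc mutants, beside 6.8% and 7.93% of all genes. Of 17 liver genes 11 and 13 did. Of 14 testis genes 1 rose in double mutants against wild type, a share near that of all genes, and none against prkdc mutants. In il2rga mutants 1 liver gene rose against wild type, beside 2.22% of all genes. Against prkdc mutants 5 liver and 7 B cell genes rose in il2rga mutants, beside 3.1%. The part of these lists in the members' levels was not tested. Double mutant 3 exceeded all prkdc libraries in 27 of 27 mitosis and 15 of 16 replication rows, a count not made over all genes. Double mutants 1 and 2 did so in 26 and 19 mitosis and 12 and 5 replication rows. In double mutant 3 the mean ovary level was 0.68 log2 CPM, with 1 of 15 ovary genes at 0 counts. Its mean liver level was 5.77 log2 CPM, against at most 3.13 in wild type and prkdc libraries. Its red cell level, 8.88 log2 CPM, was the highest of the 12 libraries.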

How the data were processed

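The values are whole-number read counts for each Ensembl gene, deposited by the authors; the submitters' processing notes name STAR, Picard, featureCounts and GRCz10. The strand setting is not given in the sources used here, so overlapping genes may share counts. Per the labels' protocols, libraries were made from poly(A) RNA of single animals with a directional kit. Symbols came from a reference table that named 26269 of 32105 rows. Gene lengths, transcripts and sequences were not used here, so levels are not compared between genes.

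Rows were kept by filterByExpr, leaving 18370, with TMM scaling. Group means of 4 genotypes were fitted to 12 libraries in edgeR 4.0.16 under R 4.3.3 (robust glmQLFit), and glmQLFTest gave 2-sided tests of 7 comparisons, adjusted by Benjamini-Hochberg over all genes tested and called under 0.05. Standard errors are log2 fold changes over the root of F. Log2 CPM means used a prior count of 2. DESeq2 1.42.0 and limma 3.58.1 (voom with quality weights) were alternatives. The fit was tested on simulated data.

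Members and lists were chosen with earlier results of these data known. Values in all libraries are given for the 12 called members with the smallest adjusted p, the 2 replication and 3 mitosis members highest in wild type and the members with the largest differences of each sign from wild type; others are marked. Of 18 pairs of libraries with the same replicate number 6 had a correlation above 0.1, so the numbers were not taken to pair animals.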

Additional observations from a re-analysis of the deposited data

How the results depend on the processing

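Calls against wild type were few and changed when single libraries were left out. There were 3 animals a group, and the common biological coefficient of variation was 0.418. The number of members called was 0 under every setting for prkdc against wild type, double against il2rga and the interaction. Of all genes, 0 to 139, 0 to 72 and 0 to 49 were called there, the most with DESeq2 in each. For il2rga against wild type it was 1, the minor rrm2 row, with DESeq2, beside 2400 of 18370 genes. With single libraries left out it was 0 to 1, where 160 to 1565 of all genes were called. Without the 4 liver-rich libraries, with 1 il2rga mutant left, the medians were 0.07 for mitosis and 0.38 for replication rows. For double against wild type (8) it was 4 without a filter (aurka, aurkb, ccnb2 and cdc20), beside 1786 of 27319 genes. It was 2 with only the groups compared (aurka and cdc20), beside 1018 of 17206 genes, and 12 with DESeq2, beside 4078 of 18370. It was 20 without the 2 libraries lowest in red cell transcripts, beside 2311 of 18617 genes. With single libraries left out it was 0 to 10, where 490 to 3268 of all genes were called. Without the 4 liver-rich or the 2 ovary-rich libraries, 1 double mutant was left. The medians were then 1.01 and 1.00 for mitosis rows, and 1.05 in both fits for replication rows. For il2rga against prkdc mutants (10) it was 5 without a filter (aurka, aurkb, nuf2, ttk and bub1), beside 793 of 27319 genes. It was 21 with DESeq2 and 20 with voom, beside 2661 and 3532 of 18370 genes. It was 2 with only the groups compared (aurkb and nuf2), beside 534 of 17072 genes. Without the libraries low in red cell transcripts it was also 2 (aurkb and nuf2), beside 461 of 18617 genes. Without the liver-rich libraries 1 il2rga mutant was left, and the medians were 1.198 for mitosis and 0.695 for replication rows. With single libraries left out the count was 0 to 14, where 191 to 1664 of all genes were called. For double against prkdc mutants (25) it was 0 with only the groups compared, beside 236 of 17097 genes. With single libraries left out it was 3 to 31, where 382 to 2946 of all genes were called. Without the liver-rich or the ovary-rich libraries, with 1 double mutant left, the medians were 2.13 for mitosis and 1.35 for replication rows in both fits. All members tested kept their sign in 18 of 22 settings. The cause was not tested.

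With the replicate number as a block, the count was 4 for double against wild type (aurka, aurkb, ccnb2 and cdc20), beside 1778 of 18370 genes. It was 8 for il2rga against prkdc and 22 for double against prkdc mutants, beside 928 and 1867 of 18370 genes. Same-numbered libraries had a median correlation of 0.0657 against -0.017 for others, so the block follows no known pairing. The minor mcm6 row in double against wild type reversed to -0.722 without the liver-rich and to -0.723 without the ovary-rich libraries. The score of double minus wild type, -0.236, moved to 0.348 as a median over members and to 0.221 without the minor rows; with single libraries left out it was -0.355 to -0.094, that of il2rga mutants -0.330 to 0.249 and that of prkdc mutants -0.791 to -0.530. The alternative without the members with the longest proteins was not run, because protein lengths were not used here. Leaving out the libraries low in red cell or rich in ovary transcripts, and 2 trims of the score, were chosen after seeing the data.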
